A study of Mus musculus with 7 samples.

Results

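The blood-retina barrier transport genes described here are 10 listed genes for nutrient carriers, a nutrient receptor and efflux pumps, taken from the table by symbol. They are Slc2a1, Slc7a5, Slc3a2, Slc38a5, Slc16a1, Slco1a4, Slco1c1, Tfrc, Abcb1a and Abcg2. The table of 12756 genes held 9 of them, and Slc16a1 was not analysed here. The libraries came from retinas of adult C57BL/6 mice that were given an antibody against Dll4, a Notch ligand of arterial and sprouting endothelium (4 libraries, anti-Dll4 1 to 4), or a control IgG (3 libraries, control IgG 1, 3 and 4). Mice of both groups had the genotype Cdh5-CreERT2 Rpl22 tm1.1Psam. There, a tamoxifen-inducible Cre under the endothelial Cdh5 promoter makes the ribosomal protein Rpl22 carry an HA tag, so that an anti-HA pull-down collects RNA on ribosomes of the cells where Cre acted. The sources used here give neither the dose nor the time of the antibody treatment. No label ties each library to its own animal, so p-values measure only the spread between libraries, which may be technical.

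Endothelial cells of the retina are sealed by tight junctions, so that nutrients have to cross them through carriers of the SLC family or by receptor uptake. ABC pumps on the same cells use ATP to return drugs and other lipophilic compounds to the blood. Several of these genes are also used outside the endothelium, Slc2a1 by Müller glia and pigment epithelium and Tfrc by most dividing or iron-demanding cells.

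Libraries held 1356192 to 1771086 reads over the listed genes, and values are given as CPM, a gene's reads scaled to a common total for each library. A floor of 3 reads lies at 1.69 to 2.21 CPM. All 19 general endothelial markers, Cdh5 and Pecam1 among them, were in the table, and their summed level ran from 4205 to 5536 CPM in anti-Dll4 libraries, against 1932 to 2864 CPM in control IgG libraries. Single markers were less uniform: 16 of the 19 changes were positive, the groups were apart for 6, and 1 (Ly6c1) passed the test described below. Cdh5 and Pecam1 overlapped between the groups, and Kdr (-0.46), Flt1 (-0.38) and Ptprb (-1.32) had negative log2 changes. The 16 rod markers summed to 11231 to 20656 CPM in anti-Dll4 libraries, against 24741 to 26207 CPM in control IgG libraries, so the pulled-down RNA held more rod than endothelial marker RNA in every library. Single rod markers were not uniform: 14 changes were negative and 2 positive (Rp1 and Sag). The groups were apart for 9 in the lower direction and for 1, Rp1, in the higher direction, and the others overlapped. The 7 red blood cell markers varied widely, from 661 CPM in anti-Dll4 1 to 36017 CPM in anti-Dll4 4 and from 1398 to 18721 CPM in control IgG libraries. Of 9 pigment epithelium markers, 3 were in the table, with sums of 19.8 to 95.8 CPM in anti-Dll4 and 60.0 to 232 CPM in control IgG libraries. A large part of these sums was Rlbp1, which is also counted among the Müller glia markers. Rlbp1 was at 12.4 to 95.8 CPM in anti-Dll4 and 57.3 to 136 CPM in control IgG libraries. The 10 Müller glia markers summed to 2003 to 2990 CPM in anti-Dll4 and 1831 to 2799 CPM in control IgG libraries. Of these, 7 changes were positive and 3 negative, and 1 gene, Vim, had groups apart (higher). The 4 of 8 pericyte markers in the table summed to 83.6 to 144 CPM in anti-Dll4 and 175 to 269 CPM in control IgG libraries. Of the 3 tested, all changes were negative, and 1 gene, Vtn, had groups apart (lower). Vtn was at 28.2 to 67.3 CPM in anti-Dll4 and 96.2 to 184 CPM in control IgG libraries, while Rgs5 and Pdgfrb overlapped. In such bulk RNA, fewer cells of a type and less RNA per cell cannot be told apart. The part of these composition differences in the results was not tested, and values scaled on the endothelial markers or fitted with mean rod marker level are given below for the 9 genes.

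The test was limma on log2(CPM + 1) over the 10899 genes that reached 1 CPM in 3 or more libraries, and a gene was called at a Benjamini-Hochberg adjusted p under 0.05 over all of them. All 9 measured transport genes passed this filter, Slc38a5 through the anti-Dll4 libraries alone. None was called (0 of 9), where 0.119% of all tested genes were, and voom on the recovered reads called none of the 9 either. At an unadjusted p under 0.05 there were 4 of 9, Slc2a1, Slc7a5 and Slc38a5 higher and Tfrc lower, where 7.09% of all tested genes were at that level (3.68% higher and 3.41% lower). Slc38a5 could enter the test only by being higher, and without it there were 3 of 8. The groups did not overlap for 3 of 9, with Slc2a1 and Slc7a5 higher and Tfrc lower in anti-Dll4 libraries. Over all tested genes 7.59% had groups apart, 3.84% in the higher and 3.75% in the lower direction. The median log2 change was 0.73 over the 9 genes and 0.37 without Slc38a5, against -0.14 over all tested genes. Signs were mixed among the 9 genes: 5 changes were positive and 4 negative, where 45.5% of all tested genes had a positive change. The changes of Slc3a2 and Slco1a4, both among the negative ones, were within 0.01 of 0. With no gene called, these signs do not settle whether the genes moved together.

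**Figure D1:**
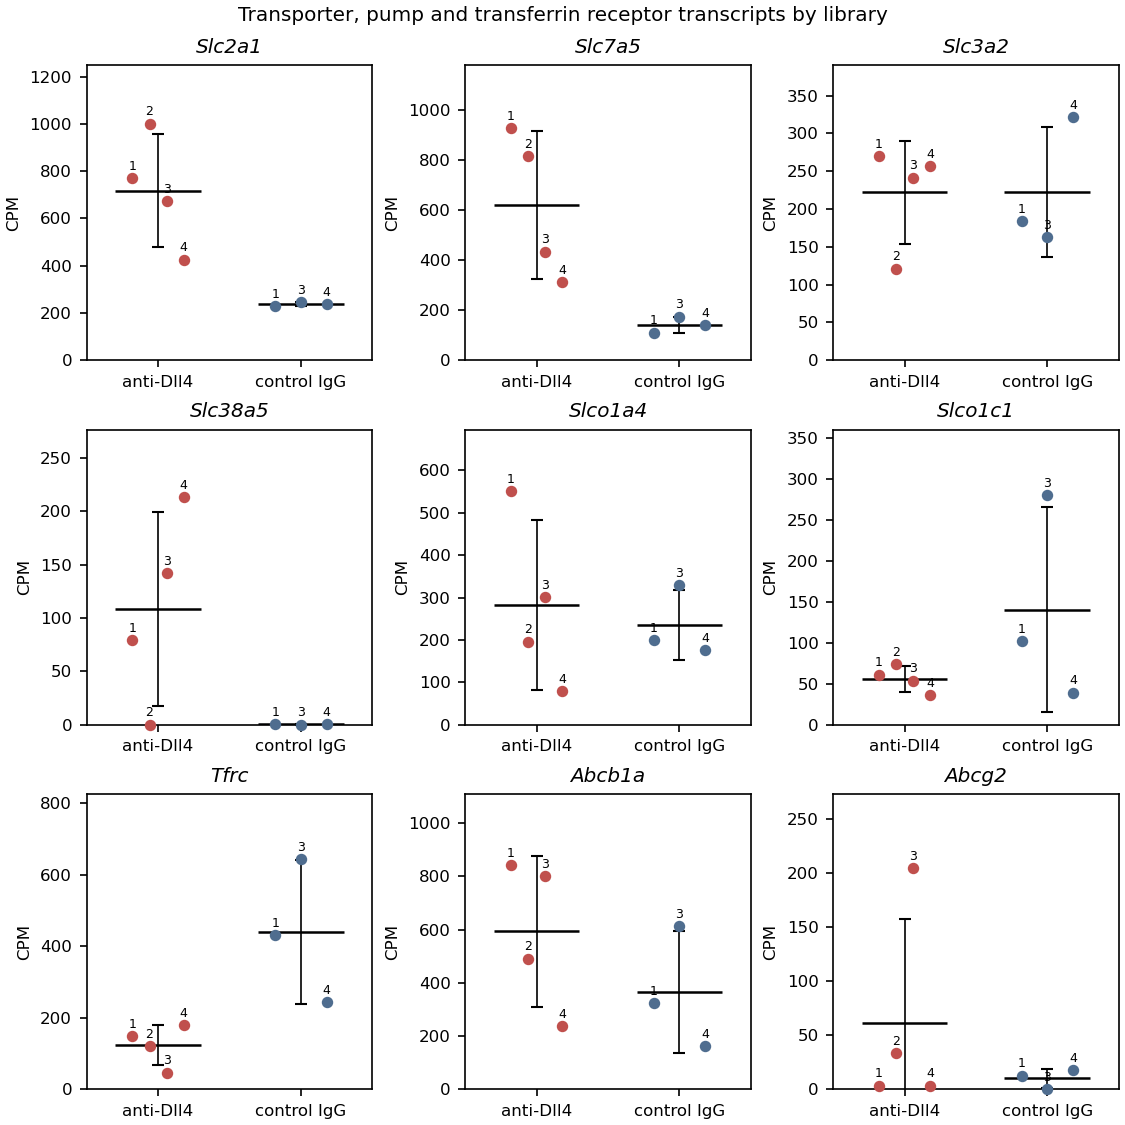
CPM of the 9 measured genes in each library (points, labelled with the library number), with the group mean (horizontal line) and SD (vertical bar, not drawn below 0), each panel with its own axis from 0. The groups are apart for Slc2a1, Slc7a5 and Tfrc and overlap for the other 6 genes.

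Promoter stretches are shown for 3 genes with a promoter in the RefSeq table and an unadjusted p under 0.05, Slc2a1, Slc38a5 and Tfrc. Each is the 250 bases before an annotated start, from RefSeq on GRCm38.p6, 5′ to 3′ on the gene's strand, all 3 on the plus strand. Capitals mark matches, on either strand, to TGGGAA (a core bound by RBPJ, the DNA-binding partner of Notch) or to ACGTG or GCGTG (the core of hypoxia response elements). A match to CTTTGAT (the TCF/LEF core of Wnt signalling) would be marked too, and none was found. The Slc2a1 stretch is chr4:119108495-119108744, the Slc38a5 stretch chrX:8271131-8271380 and the Tfrc stretch, before the second of 2 annotated starts, chr16:32608872-32609121.
Slc2a1: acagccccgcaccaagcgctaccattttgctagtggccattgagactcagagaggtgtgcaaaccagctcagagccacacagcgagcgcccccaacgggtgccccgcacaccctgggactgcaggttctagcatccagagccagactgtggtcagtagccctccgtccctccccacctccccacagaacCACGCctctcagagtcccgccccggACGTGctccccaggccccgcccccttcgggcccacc
Slc38a5: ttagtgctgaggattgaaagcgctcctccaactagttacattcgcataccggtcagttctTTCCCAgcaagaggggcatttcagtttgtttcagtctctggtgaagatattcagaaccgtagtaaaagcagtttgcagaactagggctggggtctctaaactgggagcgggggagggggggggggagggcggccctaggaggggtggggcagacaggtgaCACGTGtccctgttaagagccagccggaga
Tfrc: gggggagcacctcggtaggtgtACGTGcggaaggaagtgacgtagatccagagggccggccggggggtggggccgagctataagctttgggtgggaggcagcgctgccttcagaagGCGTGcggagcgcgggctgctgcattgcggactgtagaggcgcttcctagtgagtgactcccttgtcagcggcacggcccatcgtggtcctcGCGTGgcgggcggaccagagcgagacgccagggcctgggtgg

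The Slc2a1 stretch held CACGC, which is GCGTG on the other strand, 61 bases before the start and ACGTG 36 bases before it. In the Slc38a5 stretch the 2 matches to ACGTG overlap in CACGTG, and TTCCCA, the RBPJ core on the other strand, began 190 bases before the start. Before the second Tfrc start there were 3 matches to the hypoxia cores, which began 228, 134 and 42 bases upstream. The stretch before the first Tfrc start, not shown, held CACGC 117 and 64 bases upstream and no match to ACGTG. Slc7a5 had no promoter in the RefSeq table. Among the other 8 of the 9 genes, 4 held a hypoxia core (Slc2a1, Slc3a2, Slc38a5 and Tfrc) and 2 the RBPJ core (Slc3a2 and Slc38a5). Of 32851 promoter stretches of the same length, 38.6% held a hypoxia core, 21.6% the RBPJ core and 3.21% the TCF/LEF core. Counted per stretch, as in that background, the genes held a hypoxia core in 5 of 11 stretches and the RBPJ core in 2 of 11. These are matches of letters and not measured binding. No hypoxia core was found before Slco1a4, Slco1c1, Abcb1a or Abcg2.

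Slc2a1 encodes GLUT1, the carrier that brings glucose across the barrier. It had 770.1, 1002, 673 and 425 CPM in anti-Dll4 libraries 1 to 4, against 229, 247 and 238 CPM in control IgG libraries 1, 3 and 4. The lowest anti-Dll4 library lay above the highest control, and the control libraries were close together. Means were 718 ± 239 CPM in anti-Dll4 (SD, n = 4) and 238 ± 9.03 CPM in control IgG libraries (SD, n = 3). The log2 change was 1.52 ± 0.37 (SE) with an adjusted p of 0.164 (limma), so it did not pass the threshold. It stayed positive without any given library, at 1.34 to 1.75. With mean rod marker level added to the model it was 1.89 ± 0.49 (adjusted p = 0.710, limma). The rod marker sum was lower in every anti-Dll4 library, so that model cannot fully separate rod level from treatment.

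The 3 genes whose profiles over the 7 libraries were most like that of Slc2a1, which had the highest mean CPM of the 9 genes over all 7 libraries, were Trpc4ap, H2-K1 and Vezf1. The root mean square difference of their mean-centred log2 values from those of Slc2a1 was 0.31, 0.32 and 0.33, against a median of 1.53 over 7501 genes compared. H2-K1, a class I histocompatibility heavy chain, had 1294, 1456, 687 and 952 CPM in anti-Dll4 libraries 1 to 4, against 309, 401 and 361 CPM in control IgG libraries. Vezf1, a zinc finger transcription factor of endothelial cells, had 259, 387, 239 and 198 CPM in anti-Dll4 libraries, against 139, 120 and 149 CPM in control IgG libraries. Trpc4ap had 79.0 to 139 CPM in anti-Dll4 and 31.9 to 47.6 CPM in control IgG libraries. In control IgG libraries alone Tfrc and Abcb1a had higher means than Slc2a1, so the choice of Slc2a1 rests on the anti-Dll4 libraries. The likeness is a description over 7 libraries that share the same difference in endothelial marker share.

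Slc7a5 and Slc3a2 encode the light and heavy chain of the heterodimer LAT1-4F2hc, which exchanges large neutral amino acids such as leucine. The heavy chain takes the dimer to the membrane and also pairs with other light chains. Slc7a5 had 929, 816, 434 and 312 CPM in anti-Dll4 libraries 1 to 4, against 110.4, 175 and 139 CPM in control IgG libraries 1, 3 and 4. Every anti-Dll4 library lay above every control library, anti-Dll4 1 and 2 by most. Means were 623 ± 296 CPM (SD, n = 4) in anti-Dll4 and 142 ± 32.3 CPM (SD, n = 3) in control IgG libraries. The log2 change was 2.02 ± 0.45 (SE), with the smallest adjusted p of the 9 genes, 0.0928 (limma). It ranged from 1.78 to 2.30 with a library left out and was 2.79 ± 0.57 with mean rod marker level added to the model (adjusted p = 0.203, limma).

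Slc3a2 had 269.9, 121, 241 and 256 CPM in anti-Dll4 libraries 1 to 4, against 184, 163 and 321 CPM in control IgG libraries 1, 3 and 4. The groups overlapped, with means of 222 ± 68.4 CPM in anti-Dll4 (SD, n = 4) and 223 ± 86.1 CPM in control IgG libraries (SD, n = 3). Its log2 change was within 0.01 of 0 with an SE of 0.49 (95% interval -1.02 to 1.01), so a 2-fold difference in either direction is at the edge of what these libraries allow. In the model with rod marker level it was -0.37 ± 0.66. The log2 ratio of Slc7a5 to Slc3a2 was 1.78, 2.74, 0.85 and 0.28 in anti-Dll4 libraries 1 to 4, against -0.73, 0.10 and -1.20 in control IgG libraries 1, 3 and 4. The ratio was higher in every anti-Dll4 library, by 2.02 on average. The exact permutation test of this difference (two-sided, 35 arrangements) gave p = 0.0571, where the smallest p it can give is 0.0286. As the Slc3a2 change was within 0.01 of 0, the difference largely restates that of Slc7a5 and is not separate evidence.

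**Figure D2:**
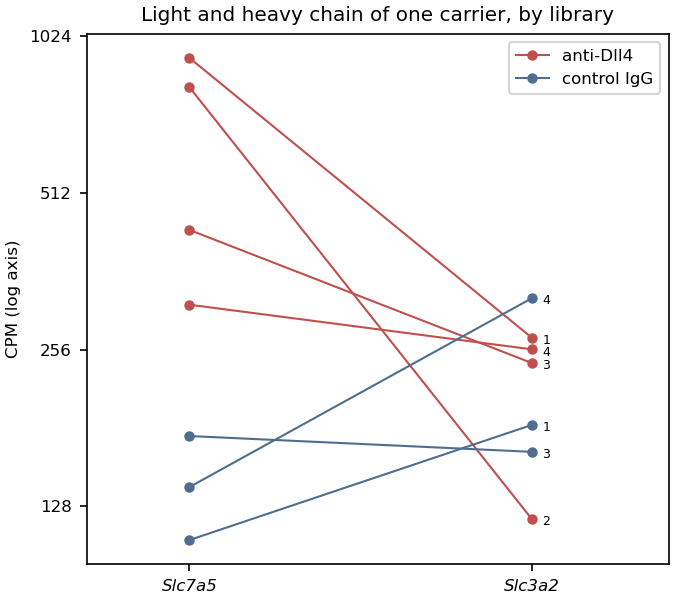
CPM (log axis) of Slc7a5 and Slc3a2, with a line for each library (red, anti-Dll4; blue, control IgG; numbers name the library). Slc7a5 lies between 312 and 929 CPM in anti-Dll4 libraries and between 110.4 and 175 CPM in control IgG libraries, while Slc3a2 overlaps between the groups.

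Slc38a5 encodes SNAT5, a carrier of glutamine and other neutral amino acids. It had 118, 0, 251 and 378 reads in anti-Dll4 libraries 1 to 4, against 1, 0 and 1 reads in control IgG libraries 1, 3 and 4. In CPM this was 79.0, 0, 142 and 213 in anti-Dll4 libraries. Thus 3 anti-Dll4 libraries stood far above the controls, and anti-Dll4 2 had no read, which allows up to 1.83 CPM. Over pooled reads, 747 in anti-Dll4 and 2 in control IgG libraries, the ratio of pooled CPM was 257 (exact 95% interval 70.9 to 2126, for counting error only). That interval leaves out the spread between libraries, which includes a library at 0. The log2 change was 4.84 ± 1.90 (SE) with an adjusted p of 0.642 (limma), and with mean rod marker level added to the model it was 1.83 ± 2.52. Without anti-Dll4 2 it was 6.61, and without any of the other anti-Dll4 libraries the gene was below the filter.

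Slco1a4 and Slco1c1 encode organic anion transporting polypeptides of the barrier, of which Slco1c1 also carries the thyroid hormone thyroxine. Slco1a4 had 550.4, 196, 301 and 79.6 CPM in anti-Dll4 libraries 1 to 4, against 199, 329.6 and 175 CPM in control IgG libraries 1, 3 and 4. The anti-Dll4 libraries span the control range on both sides, and the log2 change was within 0.01 of 0 with an SE of 0.56 (95% interval -1.17 to 1.17, adjusted p = 1.0, limma). In the model with rod marker level it was 0.36 ± 0.79. Slco1c1 had 60.9, 74.0, 53.8 and 36.1 CPM in anti-Dll4 libraries, against 102, 280.2 and 39.1 CPM in control IgG libraries. Control IgG 4 lay within the anti-Dll4 range and the other controls above it. The log2 change of Slco1c1 was -0.92 ± 0.79 (SE, adjusted p = 0.841, limma). It was -0.21 without control IgG 3, -1.62 without control IgG 4 and -0.50 ± 1.10 in the model with rod marker level.

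Tfrc encodes the transferrin receptor, which takes up iron bound to transferrin and is the classic receptor of barrier transcytosis. It was the gene with a lower level in every anti-Dll4 library. Tfrc had 148, 120.5, 45.9 and 178 CPM in anti-Dll4 libraries 1 to 4, against 431, 644 and 244 CPM in control IgG libraries 1, 3 and 4. Means were 123 ± 56.7 CPM (SD, n = 4) in anti-Dll4 and 439 ± 200.1 CPM (SD, n = 3) in control IgG libraries. The log2 change was -1.88 ± 0.55 (SE, adjusted p = 0.358, limma), from -2.25 to -1.46 with a library left out. As a share of the summed rod markers, Tfrc was at 0.716%, 0.701%, 0.409% and 1.19% in anti-Dll4 libraries 1 to 4, against 1.67%, 2.60% and 0.930% in control IgG libraries, so that on this scale the groups overlapped. The rod sum was lower in every anti-Dll4 library, which raises the share of any gene there. Slc2a1 was at 2.84% to 5.99% in anti-Dll4 and 0.888% to 0.998% in control IgG libraries. Slc7a5 was also higher in every anti-Dll4 library, and the other measured genes overlapped. The share of all tested genes with groups apart on the rod scale was not counted. With mean rod marker level added to the model the log2 change of Tfrc was -0.99 ± 0.72.

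Abcb1a encodes the main P-glycoprotein of mouse barrier endothelium and Abcg2 the breast cancer resistance protein, both ATP-driven efflux pumps. Abcb1a had 844, 491, 802 and 236 CPM in anti-Dll4 libraries 1 to 4, against 323, 614 and 162 CPM in control IgG libraries 1, 3 and 4. Only anti-Dll4 1 and 3 lay above all controls, and the log2 change was 0.73 ± 0.48 (SE, 95% interval -0.26 to 1.73, adjusted p = 0.770, limma). It was 1.21 without control IgG 3, 0.25 without control IgG 4 and 0.82 ± 0.69 in the model with rod marker level. Its near relative Abcb1b had 0 reads in anti-Dll4 libraries 1 to 3 and 41.8 CPM in anti-Dll4 4, against 1.47 to 4.72 CPM in control IgG libraries.

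Abcg2 had 5, 54, 361 and 6 reads in anti-Dll4 libraries 1 to 4, against 21, 0 and 27 reads in control IgG libraries 1, 3 and 4. The anti-Dll4 mean rested on anti-Dll4 3, at 204 CPM, and the other anti-Dll4 libraries had at most 54 reads. The log2 change was 1.60 ± 1.82 (SE, adjusted p = 0.884, limma). It was 0.46 without anti-Dll4 3, 0.28 without control IgG 3 and -0.68 with mean rod marker level added to the model, so no direction can be given. Anti-Dll4 4, the library with most red blood cell RNA, had the lowest anti-Dll4 level of Slc2a1, Slc7a5, Slco1a4, Slco1c1 and Abcb1a. The same library had the highest anti-Dll4 level of Slc38a5 (213 CPM) and Tfrc (178 CPM). Control IgG 3 and 4 had similar red blood cell sums, 18594 and 18721 CPM. Slc2a1 was at 247 and 238 CPM in them and Abcb1a at 614 and 162 CPM. A relation of these genes to red blood cell RNA was not tested.

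The levels were then set against the summed endothelial markers of the same library, a sum that was higher in every anti-Dll4 library although 3 of its 19 genes had negative changes. On this scale Slc2a1 was at 17.1%, 23.8%, 12.2% and 9.10% of the summed endothelial marker CPM in anti-Dll4 libraries 1 to 4, against 11.4%, 8.63% and 12.3% in control IgG libraries 1, 3 and 4. Slc7a5 was at 20.6%, 19.4%, 7.85% and 6.68% in anti-Dll4 libraries, against 5.52%, 6.10% and 7.22% in control IgG libraries. For both genes anti-Dll4 1 and 2 lay well above the controls. Anti-Dll4 4 lay within the control range, as did anti-Dll4 3 for Slc2a1. Their log2 changes in the fit scaled on endothelial markers were 0.45 ± 0.43 and 0.95 ± 0.50 (SE, limma adjusted p = 0.588 and 0.290). The median over all genes was itself at -1.07 on this scale, and both genes lay above it, by 1.52 and 2.02. The scaling divides all genes of a library by the same factor. Distances from the median gene, here and below, thus largely restate the changes in CPM and are not separate evidence.

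Tfrc was at 3.29%, 2.87%, 0.83% and 3.82% of the endothelial marker CPM in anti-Dll4 libraries 1 to 4, against 21.5%, 22.5% and 12.6% in control IgG libraries 1, 3 and 4. It was the gene called under this scaling (1 of 9, where 1.16% of all tested genes were called, 1.14% lower and 0.0184% higher), with a log2 change of -2.95 ± 0.59 (SE, adjusted p = 0.0151, limma), 1.88 below the median gene. Slco1c1 was at 1.35%, 1.76%, 0.972% and 0.774% in anti-Dll4 libraries, against 5.10%, 9.78% and 2.02% in control IgG libraries. These groups did not overlap, while in CPM they did. The scaling lowered the median gene too, and the share of all tested genes with groups apart on this scale was not counted. The Slco1c1 change of -1.98 ± 0.80 did not pass (adjusted p = 0.179, limma). Slc3a2 and Slco1a4, level in CPM, had log2 changes of -1.08 ± 0.54 and -1.07 ± 0.58 on this scale, close to the median gene, and Abcb1a one of -0.34 ± 0.48, which is 0.73 above the median gene. None of these 3 passed (adjusted p = 0.266, 0.302 and 0.734, limma). Slc38a5 and Abcg2 had log2 changes of 4.26 ± 1.88 and 0.72 ± 1.85 on this scale, and neither passed (adjusted p = 0.214 and 0.867, limma).

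**Figure D3:**
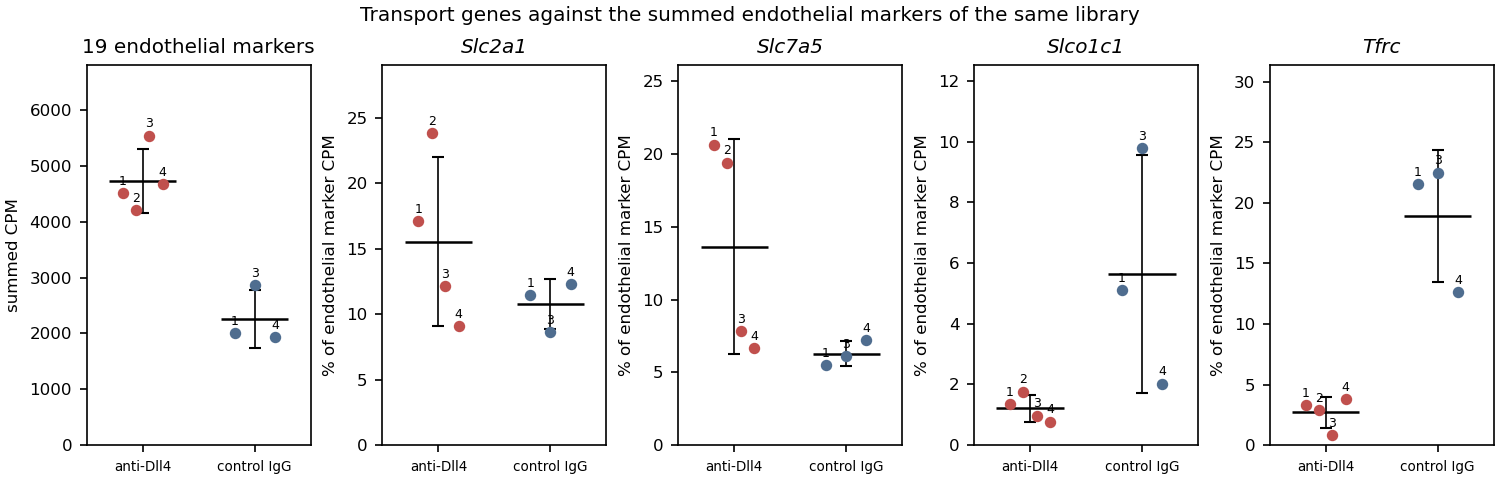
Summed CPM of the 19 general endothelial markers (left), and Slc2a1, Slc7a5, Slco1c1 and Tfrc as a percentage of that sum, in each library (points, with library numbers, group mean and SD). The marker sum is higher in every anti-Dll4 library, Slc2a1 and Slc7a5 overlap between groups once set against it, and Slco1c1 and Tfrc are lower in every anti-Dll4 library. The median log2 change of all tested genes after this scaling is -1.07.

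**Figure D4:**
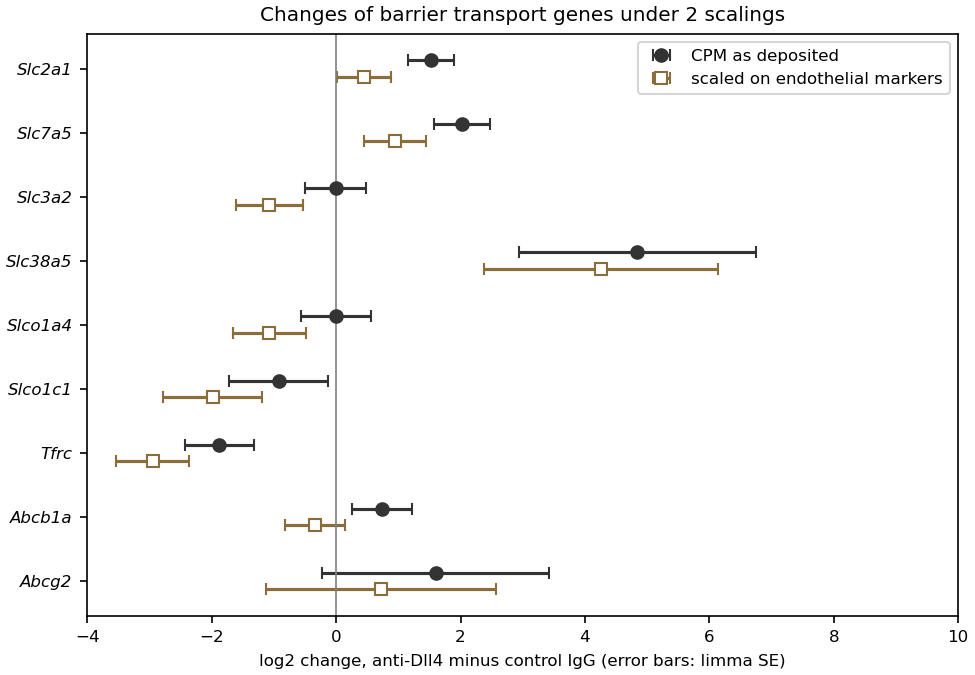
Log2 change of each gene, anti-Dll4 minus control IgG, with limma SE, from CPM as deposited (filled circles) and after scaling each library on the endothelial markers (open squares). Tfrc, at -2.95 after scaling, is the gene with an adjusted p under 0.05, and Slc2a1 and Slc7a5 come closer to 0.

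As a group, the 9 genes summed to 3655, 2854, 2898 and 1741 CPM in anti-Dll4 libraries 1 to 4, against 1590, 2452 and 1337 CPM in control IgG libraries 1, 3 and 4, with overlap. The shares of the 3 genes whose own levels were apart follow from those levels and are given as a description. Slc2a1 and Slc7a5 together made up 38.2% to 63.7% of the sum in anti-Dll4 libraries, against 17.2% to 28.2% in control IgG libraries. Tfrc made up 1.58% to 10.2% in anti-Dll4 libraries, against 18.2% to 27.1% in control IgG libraries. The share of Abcb1a overlapped, 13.6% to 27.7% in anti-Dll4 and 12.1% to 25.0% in control IgG libraries.

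Other transport genes were read from 7 wider lists, none with a gene past the threshold. Of 18 further barrier carriers tested, 12 changes were positive and 6 negative, with a median log2 change of 0.30. Slco2b1, another organic anion carrier, had 368, 220.2, 429 and 142 CPM in anti-Dll4 libraries 1 to 4, against 92.6, 52.4 and 7.82 CPM in control IgG libraries 1, 3 and 4. All anti-Dll4 libraries lay above the controls, and its log2 change was 2.91 ± 0.75 (SE, adjusted p = 0.195, limma). The zinc carrier gene Slc39a10 had 66.3 to 282 CPM in anti-Dll4 libraries, against 2.36, 179.9 and 2.61 CPM in control IgG libraries 1, 3 and 4, so the groups overlapped through control IgG 3. Mfsd2a, the lipid carrier that restrains transcytosis at the barrier, had 30.6 to 104 CPM in anti-Dll4 and 37.8 to 79.5 CPM in control IgG libraries, and Slc6a6, the taurine carrier, 1159 to 1955 CPM in anti-Dll4 and 1552 to 1743 CPM in control IgG libraries.

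Relatives of the barrier genes were read in the same way. Of 5 further glucose carriers tested, all changes were negative, with a median of -0.96. Slc2a12 had at most 1.13 CPM in anti-Dll4 libraries, against 5.90 to 18.2 CPM in control IgG libraries (adjusted p = 0.596, limma), and Slc2a8 0 to 5.50 CPM in anti-Dll4 and 0 to 30.1 CPM in control IgG libraries. Of 11 further amino acid carriers, 4 changes were positive and 7 negative, with a median of -0.85. The glycine carrier Slc6a9, which is also an amacrine cell marker, had 6.21 to 143 CPM in anti-Dll4 libraries, against 150 to 251 CPM in control IgG libraries (adjusted p = 0.688, limma). The cationic amino acid carrier Slc7a2 had reads in 1 anti-Dll4 library, at 28.2 CPM, against 15.3 to 47.2 CPM in control IgG libraries.

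Of the 5 monocarboxylate carrier relatives and chaperones tested, 3 changes were positive, with a median of 0.13. Bsg, basigin, which escorts lactate carriers to the membrane, had 2808, 2631, 2342 and 1651 CPM in anti-Dll4 libraries 1 to 4, against 877, 1715 and 684 CPM in control IgG libraries 1, 3 and 4. The groups overlapped narrowly, with a log2 change of 1.19 ± 0.29 (SE, adjusted p = 0.158, limma). Slc16a9 had 0 reads in all control IgG libraries and 0 to 49.8 CPM in anti-Dll4 libraries.

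Of 9 iron-handling genes tested beside Tfrc, 8 changes were positive, with a median of 1.04, the opposite sign to Tfrc. Over all tested genes 45.5% of changes were positive. None of the 9 was called, and only 2, those named next, had an unadjusted p under 0.05 (limma). Ftl1, a ferritin light chain that stores iron, had 37.5, 176, 169 and 366 CPM in anti-Dll4 libraries 1 to 4, against 33.6, 21.4 and 99.7 CPM in control IgG libraries 1, 3 and 4, with overlap. Hmox1, heme oxygenase, which frees iron from heme, had 43.5, 0.612, 441 and 74.5 CPM in anti-Dll4 libraries, against 0.590, 0.737 and 3.91 CPM in control IgG libraries. Neither passed (both at adjusted p = 0.695, limma). Ferritin genes have processed pseudogenes that can share reads.

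Among 8 other efflux pumps tested, 5 changes were positive and 3 negative, with a median of 0.28. Abcc1 had 8.71 to 182 CPM in anti-Dll4 and 0.652 to 91.5 CPM in control IgG libraries, and Abcb4 0 to 28.1 CPM in anti-Dll4 and 0 to 1.30 CPM in control IgG libraries. Among 9 receptors of blood-borne ligands, 4 changes were positive and 5 negative, with a median of -0.09. Lsr, a lipoprotein receptor that is also part of tricellular junctions, had 228 to 958 CPM in anti-Dll4 and 161 to 264 CPM in control IgG libraries. Igf2r, the receptor for mannose 6-phosphate and IGF2, had 127 to 155 CPM in anti-Dll4 libraries and 192 to 222 CPM in control IgG libraries (log2 change -0.50 ± 0.50, SE, adjusted p = 0.865, limma).

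**Figure D5:**
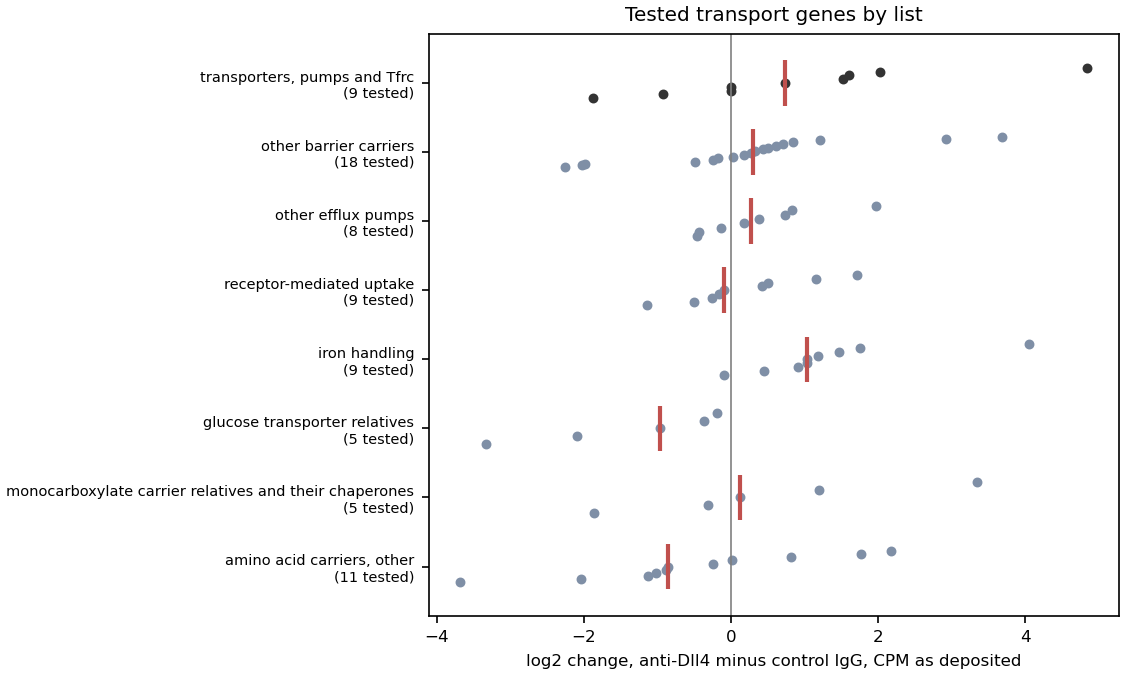
Log2 change, anti-Dll4 minus control IgG, of each tested gene in the transport lists (points), with the list median (red bar). The 9 barrier genes (top) run from -1.88 to 4.84 with a median of 0.73, the glucose transporter relatives lie below 0, and 8 of 9 iron-handling genes lie above it.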

How the data were processed

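RNA on tagged ribosomes was sequenced by QuantSeq from the 3′ end of polyA transcripts (single-end, 75 bases), per the labels' protocols. The submitters' processing notes name cutadapt, TopHat2 and bedtools, without versions or roles, and the human build hg19, although the symbols are mouse symbols. Annotation, counting rule and strand are not given in the sources used. Other annotated genes overlap Slc2a1, Slc7a5 and Abcb1a in GENCODE M21, some on the opposite strand, and reads from them cannot be told apart. The table deposited by the authors holds log10 values of CPM + 1. Turned back, 100% of values came out as whole reads (tolerance 1e-06). Values were converted to log2(CPM + 1), and the fit used limma 3.58.1 in R 4.3.3 with treatment as its single factor, moderated variances with a mean-variance trend, and two-sided tests. The column called control IgG 1 shows its group but matches no control title by number.

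Genes and lists were chosen with earlier results of these data known. All 10 genes are named, and from each wider list every gene past the threshold or, failing that, the 2 with the smallest p. Abcb1b, Mfsd2a and Slc6a6 were named after their values were seen. Sequences come from RefSeq (GRCm38.p6) by symbol. Alternatives were other pseudocounts, filters and scalings, voom, a rod covariate, a replicate block and leaving out each library. The fit was tested on simulated data. No molecular identifiers are named, so counting intervals and floors cover counting error only.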

Additional observations from a re-analysis of the deposited data

Results flagged for a closer look

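In the anti-Dll4 group, the log2(CPM + 1) of Slc3a2 was far from the others in anti-Dll4 2, at 121 CPM against 241 to 269.9 CPM in the other anti-Dll4 libraries. The gap to its nearest neighbour was 0.860 of the group's range, above Dixon's 95% critical value for 4 samples, which chance passes in about 1 of 20 groups. The same check was made for each of the 9 genes, for the ratio of Slc7a5 to Slc3a2 and for summed levels. Only Slc3a2 passed it, and 1 flag among so many checks is less rare than that rate. Without anti-Dll4 2 the log2 change of Slc3a2 was 0.26, still within its standard error.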

How the results depend on the processing

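Slc2a1, Slc7a5, Slc38a5, Slco1c1 and Tfrc kept their direction under every alternative that gave a value. The log2 change ran from 0.45 to 1.89 for Slc2a1, from 0.95 to 2.79 for Slc7a5 and from -2.95 to -0.99 for Tfrc over the alternatives other than leaving out a library. The count of barrier genes past the threshold was 0, and 1 (Tfrc) under scaling on endothelial markers; it was 0 to 0 with a library left out. The count over all genes, 13, was 0 without the mean-variance trend, 38 and 40 with voom on the recovered reads (library-size and TMM scaling), 126 under endothelial scaling (2 higher and 124 lower), 1 with mean rod marker level as a covariate, and 3 to 22 with a library left out. Direction turned for Abcb1a (-0.34, endothelial scaling, which moved the median of all genes to -1.07, 0.73 below Abcb1a) and Abcg2 (-0.68, rod covariate). Slc3a2, near 0, turned to 0.0029 with TMM and ranged from -0.19 to 0.29 with a library left out. Slco1a4, also near 0, turned to 0.0057 with a pseudocount of 5, 0.030 with TMM and 0.36 with the rod covariate, and ranged from -0.43 to 0.50 with a library left out. The cause was not tested. Titles of both groups share the numbers 3 and 4, but the deviations of libraries with the same number correlated by 0.046 and 0.067 across genes, so the numbers were not taken as pairs. With a replicate block on them 3 genes passed, none a barrier gene, and Slc3a2 turned to 0.12. The difference in the ratio of Slc7a5 to Slc3a2 was 1.58 to 2.40 with a library left out, where the test cannot reach 0.05, and 1.99 to 2.03 with other pseudocounts. The depth, 1356192 to 1771086 reads, limits values near the floor of 3 reads, such as Slc38a5 in all control IgG libraries and Abcg2 in anti-Dll4 1 and 4 (5 and 6 reads) and control IgG 3 (0 reads).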
